A study of Mus musculus with 6 samples.

Results

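The endoplasmic reticulum (ER) stress response was followed here through 10 genes, Atf4, Ddit3, Trib3, Xbp1, Herpud1, Hspa5, Hsp90b1, Pdia4, Dnajb9 and Sdf2l1, measured in mouse lung after endotoxin. Of these, 9 were listed as genes of the unfolded protein response, with earlier results of these data known. Herpud1 was taken from a figure of the study that was drawn from the same arrays, so its values are given as a description and without a test. All 10 were among the 16370 genes tested, of 22815 genes with a usable probe. The study asked which genes are affected by recombinant human thrombomodulin (rhTM), a soluble form of the thrombin-binding receptor of endothelial cells, in the lungs of endotoxaemic mice. All animals were C57BL6 males, 10 weeks of age, that received 20 mg/kg of the bacterial endotoxin LPS i.p. after starvation for 16 h. The control group of 3 mice then received saline and the treated group of 3 mice received rhTM, both at 3 h and again at 24 h, and the lungs were taken at 30 h. Every mouse on the arrays had received LPS, and no lung without LPS was compared here, so the values say nothing about the response to LPS itself.

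The ER folds secreted and membrane proteins, and an excess of unfolded protein there activates the sensors IRE1, PERK and ATF6. IRE1 splices the mRNA of Xbp1, PERK favours translation of Atf4 and through it the genes Ddit3 and Trib3, and cleaved ATF6 acts with XBP1 on genes for chaperones and for ER-associated degradation (ERAD). In the lung the response is well known in type 2 alveolar epithelium, which secretes surfactant protein, and in plasma cells, which secrete antibody. Whole lung RNA was measured, and in such samples fewer cells of a type and less RNA per cell cannot be told apart. The labelled tissue showed its defining transcripts on every array, with all 7 markers of type 2 epithelium and all 4 of club cells among the genes tested.

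The promoters of the member genes are shown first, since ATF6 and XBP1 act through known sequence elements. For each gene the RefSeq window from 250 bases before to 50 bases after the start of transcription was read (assembly GRCm38.p6), and all 10 members had one. The ER stress response element ERSE (CCAAT and CCACG with 9 bases between them, both strands) was found in 2 of 10 members, Hspa5 and Hsp90b1, and in 0.119% of 32851 promoters. The shorter ERSE-II (ATTGG, which is CCAAT read on the other strand, and CCACG with 1 base between them) was found in Herpud1 and in 0.037% of promoters. The XBP1 element UPRE (TGACGTGG) was in none of the members and in 0.676% of promoters. The C/EBP-ATF element, to which ATF4 binds (TGATG, any base, AA), was in Herpud1 and Trib3 and in 3.969% of promoters. None of the motifs searched overlapped another in a member. The stretches of Hspa5, Hsp90b1 and Herpud1 that hold ER stress elements are printed below, each read along the gene's own strand, with the matches in capitals.
Hspa5, plus strand, chr2:34772015-34772053: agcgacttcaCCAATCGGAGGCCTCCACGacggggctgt
Hsp90b1, minus strand, chr10:86705523-86705666: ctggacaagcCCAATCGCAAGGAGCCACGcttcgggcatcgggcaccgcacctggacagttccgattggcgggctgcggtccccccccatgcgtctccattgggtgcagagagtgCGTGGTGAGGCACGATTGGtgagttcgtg
Herpud1, plus strand, chr8:94386307-94386397: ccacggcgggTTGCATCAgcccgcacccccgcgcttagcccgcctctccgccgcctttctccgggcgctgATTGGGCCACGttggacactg
In Hspa5 the ERSE lay from -65 to -47, counted in bases from the start of transcription. Hsp90b1 held one from -212 to -194 and a second on the opposite strand from -107 to -89, which reads there as the reverse complement. In Herpud1 the ERSE-II lay from -52 to -42 and the C/EBP-ATF element, also in reverse, from -112 to -105. A match is a string of letters in these windows and was not measured as a binding site. Of the 85 other pathway genes with a promoter in the table, 8 held an ERSE, 1 an ERSE-II, 5 a UPRE and 12 a C/EBP-ATF element.

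Each mouse was measured on 1 one-colour array, and signals are given as multiples of the 75th percentile of the same array, so that a gene can be followed across arrays but not compared in level with another gene. Between 36252 and 40828 of 56605 probes were well above background per array, no spot was saturated, and the 17 probes of the member genes were well above background on all 6 arrays. The spike-in slope was 0.826 on the array of saline replicate 1, which the scanner software flagged as out of range. It was 1.07 to 1.09 on the others, which were within range. The table of processed values that accompanies the scanner files holds the values of saline replicate 1 under rhTM replicate 2 and the reverse, with 99.8% or more of probes equal to within 0.1%, and which assignment is right was not settled by the labels. Values below follow the scanner files, and each comparison is also given with both arrays exchanged, as the authors' table has them. The 6 arrays lay on 2 slides. By the scanner files, saline replicate 1 and rhTM replicate 3 were on slide 2. By the authors' table that slide carried rhTM replicates 2 and 3 and no control, so that there slide and treatment cannot be told apart for those arrays.

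**Figure D1:**
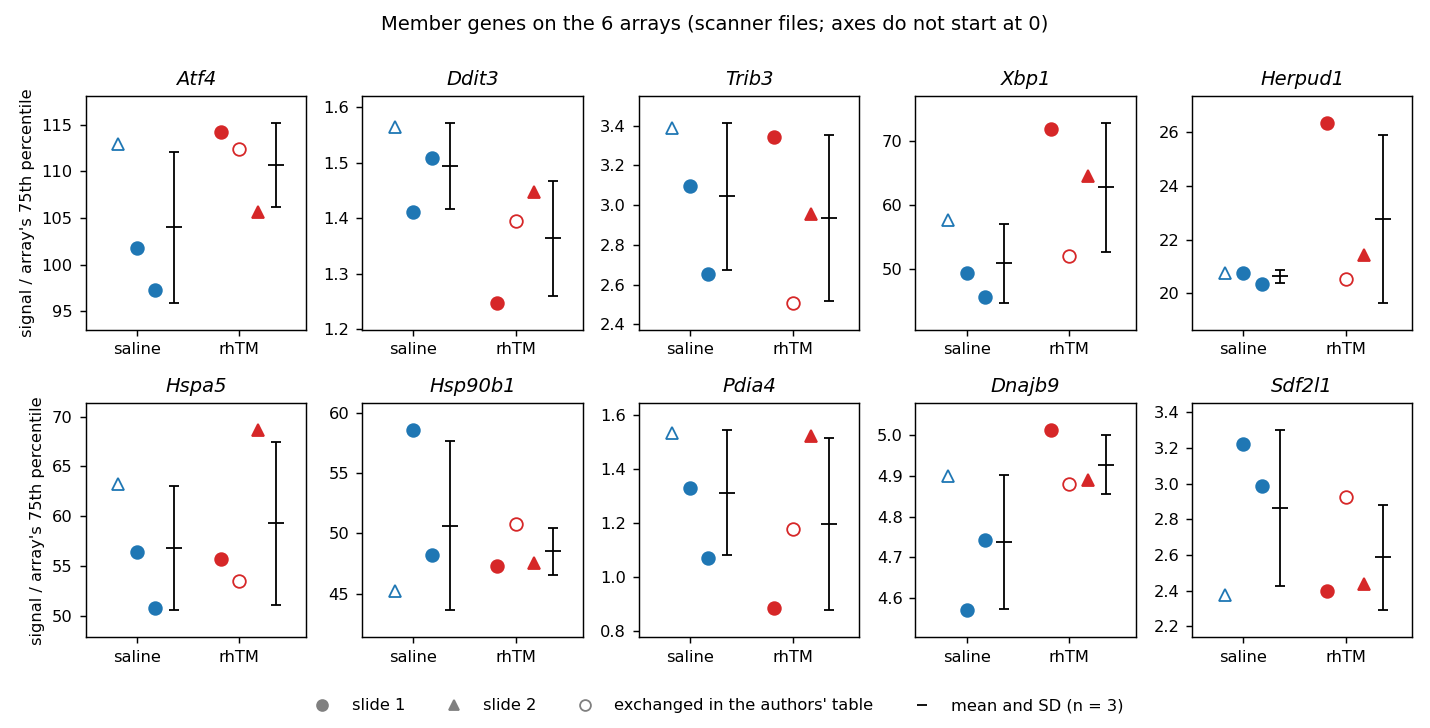
Signal of each member gene on the 6 arrays as a multiple of the array's 75th percentile (linear axes that do not start at 0), with circles for slide 1, triangles for slide 2, open symbols for the arrays exchanged in the authors' table, and bars for the mean and SD (n = 3). Saline and rhTM symbols overlap in every panel, and the highest Xbp1 and Herpud1 values, 72.0 and 26.4, are both on the array of rhTM replicate 1.

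None of the 9 tested members passed the test between rhTM-treated and saline-treated lungs under either assignment of the arrays. Xbp1 had the largest difference, with a mean signal 1.23-fold higher in the rhTM-treated lungs by the scanner files and 1.32-fold higher by the authors' table. By the authors' table, Xbp1, Herpud1 and Dnajb9 lay above the saline values in all 3 rhTM-treated mice, and Sdf2l1 and Hsp90b1 lay below them in all 3, where 21.7% of all genes tested did not overlap. By the scanner files the groups overlapped for all 10 genes, and 5.52% of all genes did not overlap. Differences were tested with limma across all genes (Benjamini-Hochberg adjustment, threshold 0.05), and singly by permuting the arrays (exact, two-sided), where the smallest p that 3 arrays a group allow is 0.10.

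Among the transcriptional regulators, Atf4 encodes the factor whose translation PERK favours and which activates genes of amino acid metabolism and of stress. Its signal was 113, 102 and 97.3 in the saline-treated mice and 114, 112 and 106 in the rhTM-treated mice. The rhTM values lay toward the upper end of the saline values, with saline replicate 1 among them. This gave a log2 fold change of 0.09 (SE 0.12, 95% interval -0.19 to 0.37; exact permutation p = 0.3; limma adjusted p = 0.9999), and by the authors' table it was 0.10 (SE 0.10, adjusted p = 0.674). Atf4 was among the steadiest members, and 8.1% of all genes had a lower SD within groups.

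Ddit3 encodes CHOP, a factor downstream of ATF4 that is known for promoting cell death under lasting stress. Its signal was 1.57, 1.41 and 1.51 in the saline group and 1.25, 1.40 and 1.45 in the rhTM group. The lowest value was that of rhTM replicate 1, and saline replicate 2 fell between rhTM replicates 2 and 3. The log2 fold change was -0.13 (SE 0.12, 95% interval -0.42 to 0.15; exact permutation p = 0.2; limma adjusted p = 0.9999). It was -0.02 by the authors' table (SE 0.12, adjusted p = 0.939).

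Trib3, a pseudokinase induced through ATF4 and CHOP that binds the kinase AKT, had signals of 3.39, 3.09 and 2.65 with saline and of 3.35, 2.51 and 2.96 with rhTM. Both groups covered nearly the same range. A log2 fold change of -0.05 resulted by the scanner files (SE 0.16, 95% interval -0.43 to 0.32; exact permutation p = 0.7; limma adjusted p = 0.9999). Its sign depended on the exchanged arrays, and by the authors' table it was 0.23 (SE 0.12, 95% interval -0.06 to 0.53, adjusted p = 0.423). Leaving out both of these arrays gave 0.13.

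Xbp1 encodes the factor that IRE1 activates by splicing its mRNA. The array signal was not resolved into spliced and unspliced mRNA. It was 57.7, 49.4 and 45.8 in the saline group and 72.0, 52.0 and 64.6 in the rhTM group. The top values were those of rhTM replicates 1 and 3, while rhTM replicate 2 lay below saline replicate 1. Means were 50.9 ± 6.12 and 62.9 ± 10.1 (SD, n = 3), and the log2 fold change was 0.30 (SE 0.17, 95% interval -0.10 to 0.69; exact permutation p = 0.2; limma adjusted p = 0.9999). By the authors' table the means were 49.1 ± 3.15 and 64.7 ± 7.14, and the groups did not overlap. There the log2 fold change was 0.40 (SE 0.12, 95% interval 0.11 to 0.68), with limma's unadjusted p at 0.0145 and the adjusted p at 0.314. A slide term in the fit of that table leaves rhTM replicate 1 as the lone treated array against the 3 saline arrays, since slide 2 holds no control there, and the 0.55 so obtained is the difference of that single array.

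Markers of antibody-secreting cells were set beside Xbp1, which these cells express strongly. Jchain, Mzb1, Sdc1 and Prdm1 summed to 4.68, 5.07 and 4.84 in the saline group and to 6.90, 5.05 and 5.11 in the rhTM group, so the array with the most Xbp1, rhTM replicate 1, also had the highest sum. Most of the sum was Sdc1, the syndecan also found on epithelium, at 5.75 in rhTM replicate 1 and 3.63 to 4.12 elsewhere. Of these markers only Sdc1 was highest in rhTM replicate 1. Mzb1 was highest in saline replicate 3 (0.423, against 0.321 in rhTM replicate 1) and Prdm1 in rhTM replicate 2 (0.909, against 0.781). Jchain, the joining chain of secreted antibody, was at 0.0334 to 0.105 in the saline group and 0.0441 to 0.0484 in the rhTM group. By the authors' table the log2 fold change was 0.24 for Sdc1, -0.30 for Jchain, -0.08 for Mzb1 and -0.36 for Prdm1. By the scanner files only Jchain was lower with rhTM (-0.18). These markers were among the genes tested, for which a signal well above background on all 3 arrays of a group was required. The fifth marker, Tnfrsf17, was not among the genes tested. For 3 marker lists of other cell types, rhTM replicate 1 lay beyond the other arrays in both summed signal and mean deviation. The latter is the mean log2 deviation of a list's genes from their means over the 6 arrays. The mean deviation was 0.57 for the 4 erythroid markers (summed signal 1431, against 1032 to 1394 elsewhere) and 0.24 for the 6 neutrophil markers (1128, against 879 to 1045). It was -0.33 for the 7 markers of type 2 epithelium (895, against 981 to 1461), 6 of which were lowest there. For the 4 ciliated markers the mean deviation alone was highest in rhTM replicate 1 (0.56). Their summed signal was 55.8 in rhTM replicate 3 and 54.1 in rhTM replicate 1. Sums of signals, which the brightest probes set, were highest on this array in 6 of the other 12 marker lists, but in 4 of these the mean deviation was below 0. Endothelial markers summed to 139 there, against 91.6 to 111, with Cldn5 at 93.7 of it, while 3 of the 6 genes were highest and 3 lowest on this array and the mean deviation was -0.11. Macrophages (-0.11), B cells (-0.13) and cytosolic heat shock (-0.0973) were the other 3. Their part in the Xbp1 value was not tested.

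Among the chaperones, Hspa5 encodes BiP, the Hsp70 chaperone of the ER lumen that holds the sensors inactive. Its signal was 63.3, 56.4 and 50.8 with saline and 55.7, 53.5 and 68.7 with rhTM. The highest values of both groups, saline replicate 1 and rhTM replicate 3, came from the arrays on slide 2. Means were 56.8 ± 6.27 and 59.3 ± 8.20 (SD, n = 3), and the log2 fold change was 0.06 (SE 0.15, 95% interval -0.30 to 0.42; exact permutation p = 0.7; limma adjusted p = 0.9999). By the authors' table it was 0.22 (SE 0.12, 95% interval -0.06 to 0.50, adjusted p = 0.425). Without rhTM replicate 3 it was -0.05 and without saline replicate 3 it was -0.02 by the scanner files. The promoter of Hspa5 is one of the pair with an ERSE printed above.

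Hsp90b1 encodes GRP94, the Hsp90 chaperone of the ER lumen, and is the other member with an ERSE. Its signal was 45.2, 58.6 and 48.2 in the saline group and 47.3, 50.8 and 47.5 in the rhTM group. Saline replicate 2 was the highest array and saline replicate 1 the lowest, with all the rhTM values between them. The log2 fold change was -0.05 (SE 0.14, 95% interval -0.38 to 0.27; exact permutation p = 0.8; limma adjusted p = 0.9999), and without saline replicate 2 it was 0.06. It was -0.17 by the authors' table (SE 0.11, adjusted p = 0.509).

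Pdia4, a protein disulfide isomerase that forms and rearranges disulfide bonds in the ER, varied most among the members. Its signal was 1.54, 1.33 and 1.07 with saline and 0.884, 1.18 and 1.52 with rhTM, a range of 1.74-fold. As for Hspa5, the highest values were those of saline replicate 1 and rhTM replicate 3 on slide 2. Its log2 fold change was -0.15 (SE 0.23, 95% interval -0.71 to 0.40; exact permutation p = 0.6; limma adjusted p = 0.9999). It was 0.10 by the authors' table (SE 0.23, adjusted p = 0.859), and without rhTM replicate 1 it was 0.05 by the scanner files.

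Dnajb9 encodes ERdj4, a J-domain co-chaperone of BiP, and was the steadiest member. Its signal was 4.90, 4.57 and 4.74 in the saline group and 5.01, 4.88 and 4.89 in the rhTM group, a range of 1.10-fold over the 6 mice. The rhTM values sat at the top of the range together with saline replicate 1. The log2 fold change was 0.06 (SE 0.11, 95% interval -0.19 to 0.31; exact permutation p = 0.3; limma adjusted p = 0.9999), and it was 0.06 by the authors' table too (SE 0.09, adjusted p = 0.762). Of all genes, 0.4% had a lower SD within groups.

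Sdf2l1 encodes a stress-inducible ER protein that works with BiP and its co-chaperones. Its signal was 2.38, 3.22 and 2.99 with saline and 2.40, 2.93 and 2.44 with rhTM. Saline replicate 1 was low among the control values and rhTM replicate 2 high among the treated ones, and these are the arrays that the authors' table exchanges. The log2 fold change was -0.14 by the scanner files (SE 0.16, 95% interval -0.52 to 0.24; exact permutation p = 0.5; limma adjusted p = 0.9999). By the authors' table the means were 3.05 ± 0.156 with saline and 2.40 ± 0.0290 with rhTM (SD, n = 3), and the groups did not overlap. There it was -0.34 (SE 0.09, 95% interval -0.56 to -0.12), with limma's unadjusted p at 0.00889 and the adjusted p at 0.314.

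Herpud1, which encodes a ubiquitin-like ER membrane protein of the ERAD machinery, was the member picked from the study's figure. Its signal was 20.8, 20.8 and 20.4 in the saline group and 26.4, 20.6 and 21.4 in the rhTM group. One array, rhTM replicate 1, stood above the other 5, which lay close together. The log2 difference was 0.13, and without rhTM replicate 1 it was 0.02. By the authors' table these values were 0.14 and 0.04. The groups overlapped by the scanner files and did not by the table, where the lowest rhTM value, 20.77, was just above the highest saline value, 20.76.

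**Figure D2:**
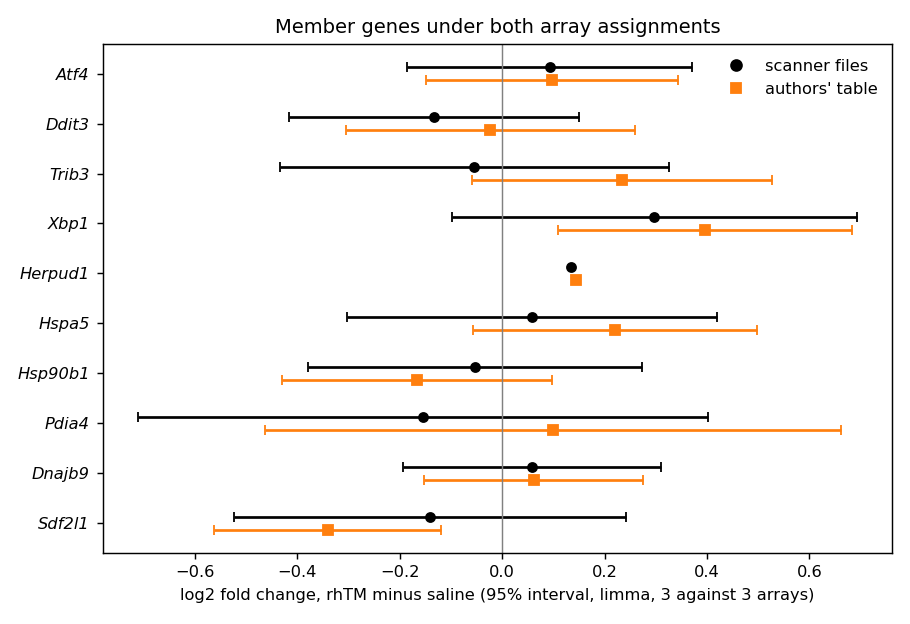
Log2 fold change (rhTM minus saline) of each member gene with its 95% interval from limma, 3 arrays against 3, by the scanner files (black circles) and by the authors' table (orange squares); Herpud1, chosen from these arrays, is drawn without an interval. All 9 intervals cross 0 by the scanner files, and by the table those of Xbp1 (0.11 to 0.68) and Sdf2l1 (-0.56 to -0.12) do not.

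Over the list, 5 of 10 members had a higher mean with rhTM by the scanner files and 7 of 10 by the authors' table. Their median log2 fold change was 0.0021 by the former and 0.10 by the latter, beside medians of 0.0026 and -0.02 over all genes tested. Of all genes, 50.7% were higher by the scanner files and 46% by the table. None of the 9 tested members passed an adjusted p of 0.05 under either assignment, where 0% of 16370 genes and 0% of 16320 genes passed. An unadjusted p under 0.05 from limma was reached by 0 of the 9 tested members by the scanner files, where 1.87% of all genes reached it. By the table Xbp1 and Sdf2l1 reached it, 2 of 9, where 14% of all genes did. The groups did not overlap for 0 members by the scanner files, and for 5 by the table, beside the shares of all genes given above. Herpud1 is one of these 5 and was chosen from the same arrays. When rhTM replicate 1 was left out of the table, the saline arrays were all on slide 1 and the rhTM arrays both on slide 2, so that treatment and slide cannot be told apart. There 3.44% of all genes passed the adjusted p and 0 of the 9 tested members did, and the lowest adjusted p of a tested member was 0.101, for Sdf2l1. The 95% intervals of the 9 tested members ran from -0.71 at the lowest to 0.69 at the highest by the scanner files, so that none of them reached 1 log2 unit in either direction.

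Several probes measured 5 of the members, and for 4 of these the probes differed in sign by the scanner files. The brightest probe stood for the gene above. For Xbp1 the other probes gave 0.05 and -0.05 by the scanner files and 0.02 and 0.07 by the authors' table, on the log2 scale, where the brightest gave 0.30 and 0.40. The mean over its 3 probes was 0.10 by the scanner files. For Herpud1 the second probe gave -0.13 by the scanner files, opposite to the brightest, and 0.0067 by the table. Its signals were 3.58, 4.14 and 3.53 with saline and 3.81, 3.09 and 3.37 with rhTM, so that on this probe rhTM replicate 1 did not stand above the saline values. For Atf4 the second probe gave -0.13 and 0.04, and for Dnajb9 it gave -0.09 and 0.12. The 3 probes of Hspa5 had the same sign, with 0.08 and 0.03 for the others by the scanner files and 0.13 and 0.09 by the table.

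**Figure D3:**
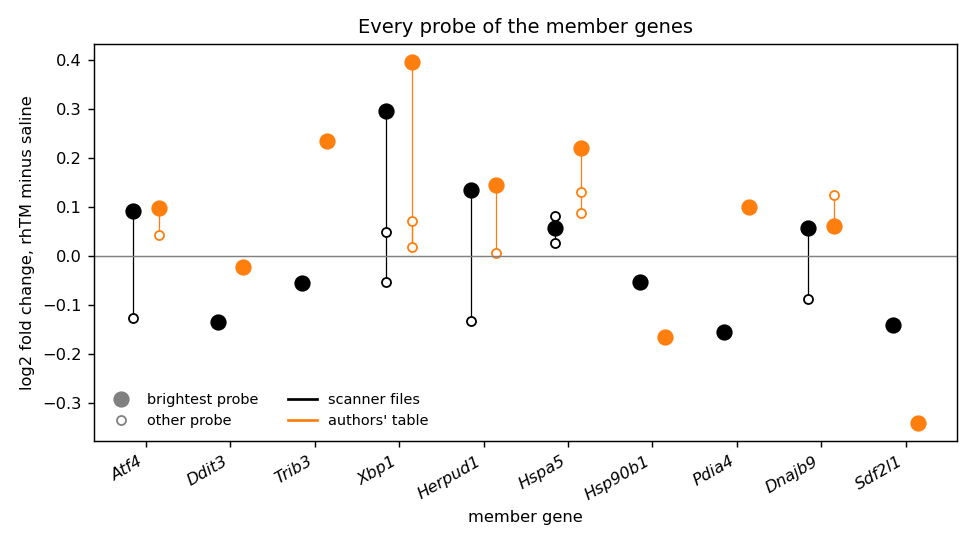
Log2 fold change (rhTM minus saline) of every probe of the 10 member genes by the scanner files (black) and the authors' table (orange), filled symbols for the brightest probe and open symbols for the others. The brightest Xbp1 probe lies at 0.30 and 0.40 while its other probes lie between -0.05 and 0.07, and Atf4, Xbp1, Herpud1 and Dnajb9 have probes on both sides of 0 by the scanner files.

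Across the mice, 8 of the 10 members had a lower SD within groups than the median gene. Their median SD within groups was 0.16 on the log2 scale, beside 0.21 over all genes tested, and their median range over the 6 arrays was 1.32-fold, beside 1.45-fold. No comparison with genes of equal signal was made, so the lower spread is not read as a trait of these genes. The highest and lowest arrays differed among the members, and how the members varied together was not measured. The array of rhTM replicate 1 was the highest for 4 members, saline replicate 1 for 3, saline replicate 2 for 2 and rhTM replicate 3 for 1. Saline replicate 3 was the lowest for 4 members, with the mean log2 deviation of the members on that array at -0.09, beside -0.04 to 0.05 on the others.

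Hspa5 and Pdia4 separated the arrays by slide. Hspa5 had a mean of 54.1 on slide 1 and 66.0 on slide 2, a log2 difference of 0.29 (SE 0.10, adjusted p = 0.27 from limma with slide and treatment as terms). Pdia4 had means of 1.12 and 1.53, a log2 difference of 0.47 (SE 0.17, limma adjusted p = 0.272). These 2 of 10 members did not overlap between slides, where 32.7% of all genes did not, and 0 members passed an adjusted p for the slide, where 1.42% did. On these counts the members did not stand out from all genes, so nothing is read from the slide differences of Hspa5 and Pdia4. Within slide 1 (2 arrays against 2) 6 members were higher with rhTM, and within slide 2 (1 against 1) 5 were, and 5 had the same sign in both. For Xbp1 the log2 difference was 0.36 within slide 1 and 0.16 within slide 2, and for Herpud1 it was 0.18 and 0.05. For Sdf2l1 it was -0.23 and 0.03, and for Hsp90b1 -0.12 and 0.07, so the direction of these genes differed between slides. Ddit3 gave -0.14 and -0.11, Pdia4 -0.23 and -0.01, Hspa5 0.03 and 0.12, Atf4 0.19 and -0.10, Trib3 0.02 and -0.20, and Dnajb9 0.09 and -0.0030. With the slide as a term, the lowest adjusted p of the 9 tested members was 0.92.

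**Figure D4:**
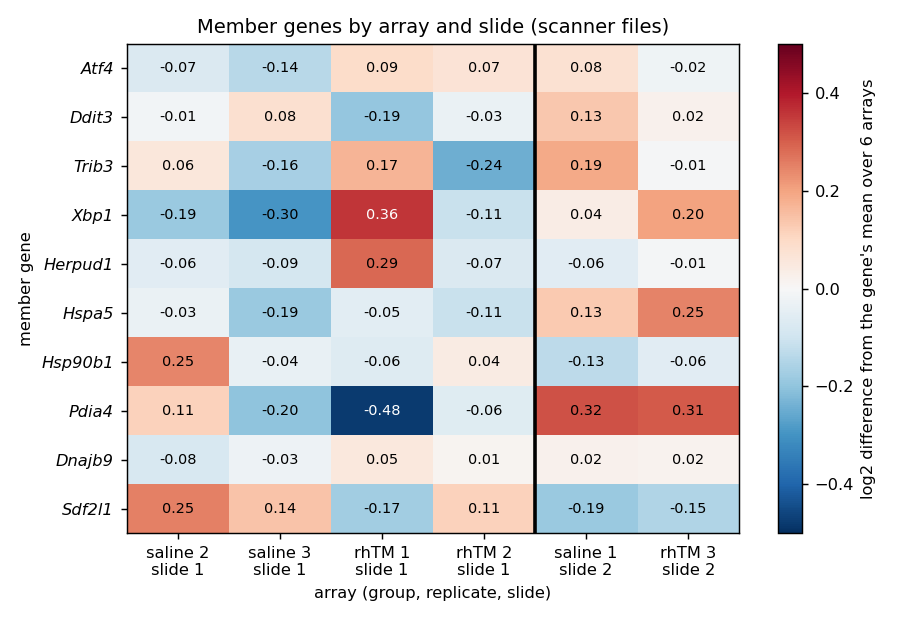
Log2 difference of each member gene from its mean over the 6 arrays (colour scale and printed values, scanner files), with arrays as columns ordered by slide and a black line between the slides. Pdia4 and Hspa5 are above their means on both arrays of slide 2 (means of 1.53 and 66.0 against 1.12 and 54.1 on slide 1), and Xbp1 and Herpud1 are highest in rhTM replicate 1.

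The other genes of the pathway were counted in 4 lists, and none of their genes passed an adjusted p of 0.05 under either assignment. Over the 4 lists together, with 16, 26, 29 and 37 genes tested, the groups did not overlap for 4 above and 2 below saline by the scanner files, where 5.52% of all genes did not overlap, and for 14 above and 8 below by the table, where 21.7% of all genes did not. Both counts are near these shares, so nothing is read from the single pathway genes without overlap that are named below. Of 16 sensors and partners, 4 were higher with rhTM by the scanner files and 3 by the table, with median log2 fold changes of -0.08 and -0.11. Ern1, the gene of IRE1, gave -0.03 and -0.08, and Atf6 gave 0.04 and -0.12. Eif2ak3, the gene of PERK, had signals of 1.69, 1.50 and 1.45 with saline and 1.66, 1.61 and 1.70 with rhTM, for log2 fold changes of 0.10 and 0.15. By the table its groups did not overlap.

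Of 26 further ER chaperones and folding enzymes, 16 were higher by the scanner files and 13 by the table, with medians of 0.03 and 0.01. Dnajb11, the co-chaperone ERdj3, had signals of 9.93, 10.1 and 9.47 with saline and 11.9, 10.6 and 10.8 with rhTM. Its groups did not overlap by the scanner files, and its log2 fold change was 0.17 (limma adjusted p = 0.9999) and 0.11 by the table. Manf, a secreted stress protein, gave 0.13 and 0.26, and the lectin chaperone Canx gave -0.06 and -0.26. By the table neither overlapped between groups, with limma adjusted p of 0.333 and 0.327. The chaperone Hyou1 gave -0.31 and -0.21, Calr, the lectin chaperone calreticulin, -0.15 and -0.20, and Creld2, an ER stress-inducible protein, -0.16 and -0.15. The disulfide isomerases Pdia3 and Pdia6 gave 0.08 and 0.06 by the scanner files and 0.30 and 0.17 by the table, and the co-chaperone Dnajc3 gave -0.0037 and -0.12. The widest difference in this list was that of Fkbp11, a peptidyl-prolyl isomerase named here after its values were seen. It gave 0.37 and 1.68, with both arrays of slide 2 at 0.151 and the others at or below 0.0947.

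Of 29 ERAD and translocation genes, the rhTM mean was the higher one for 24 by the scanner files and for 17 by the table, with medians of 0.08 and 0.09. The array of rhTM replicate 1 was the highest for 15 of the 29. It was the highest for 2 of 16 sensors and partners, 6 of 26 chaperones and 14 of 37 ATF4 and CHOP targets. How many of all genes tested were highest there was not counted, so nothing is read from the 15. Sel1l, the adaptor of the ERAD ligase, gave 0.08 and 0.26, and the ligase gene Syvn1 gave 0.06 and -0.02. Derl3, a channel component, gave 0.14 and 0.04. Edem1, which marks misfolded glycoproteins for degradation, had signals of 2.27, 2.70 and 2.32 with saline and 1.72, 2.73 and 2.12 with rhTM, for -0.17 by the scanner files and -0.35 by the table (limma adjusted p = 0.351).

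Of 38 ATF4 and CHOP targets, 37 were tested, and 21 were higher with rhTM by the scanner files and 25 by the table, with medians of 0.0060 and 0.07. Chac1, which degrades glutathione and is induced by ATF4 and CHOP, had signals of 1.48, 1.91 and 1.36 with saline and 0.923, 1.24 and 1.10 with rhTM. All its rhTM values lay below the saline values. For Chac1 the log2 fold change was -0.54 (SE 0.18; limma adjusted p = 0.9999), and by the table, where the groups overlapped, it was -0.37 (adjusted p = 0.491). Slc7a11, the cystine transporter subunit and named here after its values were seen, gave 0.60 and 0.41. Atf3, a stress-induced factor, gave -0.42 and 0.02, and Asns, the asparagine synthetase gene, gave -0.09 and 0.07. Ppp1r15a encodes GADD34, which restores translation after PERK has been active. Its signals were 12.6, 12.4 and 11.6 with saline and 17.0, 10.9 and 12.3 with rhTM, for log2 fold changes of 0.11 and 0.25, with rhTM replicate 1 again the highest array.

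**Figure D5:**
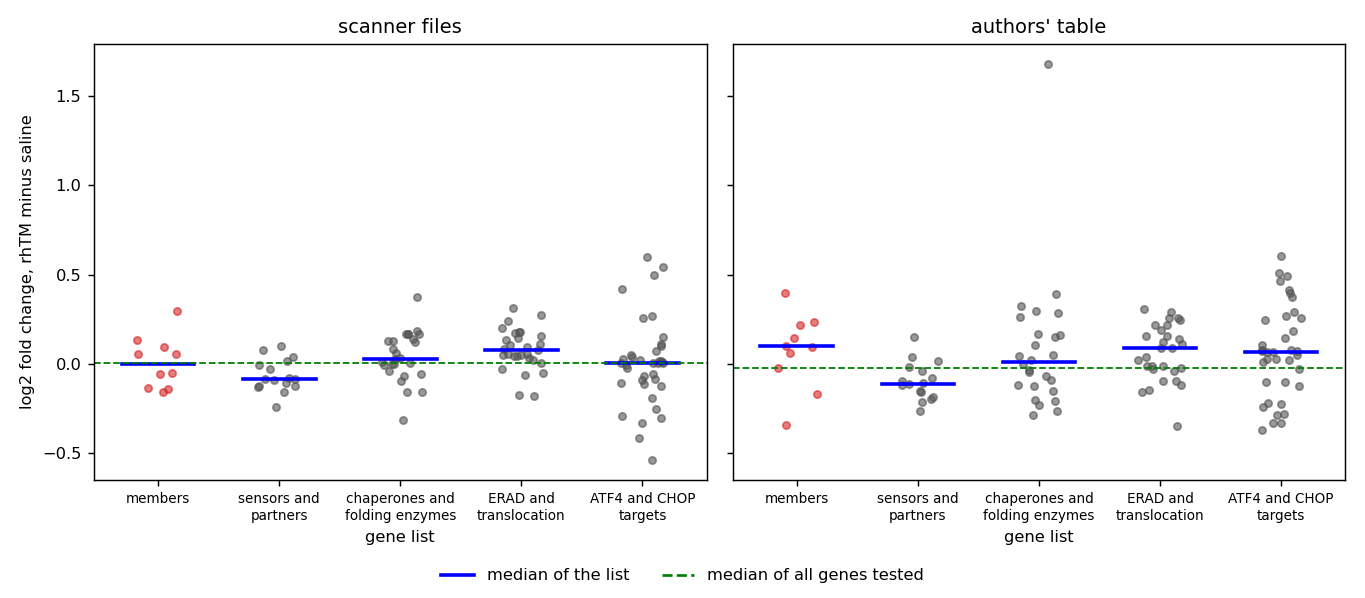
Log2 fold change (rhTM minus saline) of each tested gene in the member list (red) and the 4 pathway lists (grey) by the scanner files (left) and the authors' table (right), with blue bars for list medians and a dashed green line for the median of all genes tested. The member median lies at 0.0021 and 0.10, the sensor median at -0.08 and -0.11, and single genes reach from -0.54 (Chac1) to 1.68 (Fkbp11, by the table).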

How the data were processed

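RNA was measured from the lungs of 3 saline-treated and 3 rhTM-treated mice on one-colour Agilent SurePrint G3 Mouse arrays, with a single array for each mouse. For each array the authors deposited a scanner file (Feature Extraction 10.7.3.1 per the file headers), whose processed signal is a background-corrected intensity. A deposited table holds the same intensity values as a mean per probe, with saline replicate 1 and rhTM replicate 2 exchanged. The labels name saline as the control, while the general methods of the study name PBS, and the RNA kit also differs between labels and methods.

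After removal of control and outlier-flagged spots, the spots of a probe were averaged. No clean spot was left on some array for 398 of 56605 probes, which were removed. Log2 signals were scaled by each array's 75th percentile. Probe accessions were matched to RefSeq genes (GRCm38.p6), which named 32994 probes. Probes well above background on all 3 arrays of a group were kept (36061), and the brightest stood for its gene, which left 16370 genes, or 16320 by the authors' table. Groups were compared with limma 3.58.1 (lmFit, eBayes) in R 4.3.3, adjusting p-values over all genes by Benjamini-Hochberg, and single genes by an exact permutation test. The fit was tested on simulated data. The number of arrays limits the precision. Slides were taken from the scanner files.

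The members, the pathway lists and the marker lists were chosen with earlier results of these data known. Every member was named, and Herpud1 came from a figure drawn from these arrays. A further 20 pathway genes were named by a list. Alternatives were normexp background correction (offset 50), quantile normalization, another percentile, no scaling, no filter, a stricter filter, the mean of a gene's probes, slide and replicate number as blocks, the methods' t-test, the authors' table, the exchanged arrays left out and each array left out in turn. The authors' table was also combined with the slide and with each array left out. The methods' t-test on that table and the values within each slide were chosen after seeing the data. Normexp used median spot signals in place of mean ones. Protein sequences were not analysed here.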

Additional observations from a re-analysis of the deposited data

How the results depend on the processing

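None of the 9 tested members passed an adjusted p of 0.05 in any of the 26 alternative settings. In the authors' table slide 2 holds no control, so with the slide as a block there the treatment term is rhTM replicate 1 alone against 3 saline arrays, and the lone array is assumed to vary like the others. In the remaining settings the lowest adjusted p was 0.101, for Sdf2l1. Xbp1 was higher with rhTM in all 26 settings, with log2 differences from 0.0975 to 0.55 (the upper limit from that single array, the next being 0.52), and Sdf2l1 was lower in all, from -0.37 to -0.050. These settings rework the same 6 arrays, so a constant sign is no sign of stability. The 0.0975 came with the mean of the Xbp1 probes, and the other settings used its brightest probe. Herpud1 ran from 8e-04, with the mean of its probes, to 0.36, and since it was chosen from these arrays its direction is no sign of stability. The other 7 changed sign in 1 to 12 settings, and the cause was not tested. Quantile normalization gave -0.0177 for Hspa5. The mean of a gene's probes gave -0.0171 for Atf4 and -0.0147 for Dnajb9, with 3 members higher. The authors' table gave 0.0991 for Pdia4 and 0.234 for Trib3, by limma and by the methods' t-test alike, and 0.2872 for Trib3 when the slide was a block. Without both exchanged arrays Trib3 was at 0.1343. With single arrays left out, by the scanner files or the table, log2 fold changes ran from -0.0524 to 0.301 for Hspa5, -0.2255 to 0.0561 for Hsp90b1, -0.1787 to 0.0668 for Ddit3, -0.3467 to 0.3626 for Pdia4 and -0.1537 to 0.3215 for Trib3.

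The median of the members was 0.0981 by the authors' table with either test, 0.1118 without both exchanged arrays, 0.0708 by the table when the slide was a block, and -0.0526 to 0.1189 with single arrays left out. There 4 to 8 members were higher. Calls over all genes numbered 432 by the table when the slide was a block, which compare the single array rhTM replicate 1 with the controls, and 0 to 561 with single arrays left out. The 561 came without rhTM replicate 1 of the table, where treatment equals slide. By the methods' t-test at their thresholds of P and fold, 1 of 16370 genes passed by the scanner files and 14 of 16320 by the table, 0 of them members. At their P alone, 54 and 512 genes passed, among them 0 members by the scanner files and 1, Sdf2l1, by the table. After Benjamini-Hochberg adjustment 0 genes did.

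The labels number the mice within each group and name no pairs, and correlations between arrays cannot show whether mice were paired. Deviations of same-numbered arrays correlated at -0.30, 0.44 and -0.45 over genes, and with the replicate number as a block 0 genes were called, and so 0 of the 9 tested members, as without it. The highest correlation, 0.64, was that of both arrays on slide 2.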
